A study of Rattus norvegicus with 4 samples.

Results

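Genes of the major histocompatibility complex (MHC) class II pathway, with the costimulatory ligands Cd80 and Cd86, were examined in carbon nanotube-exposed rat alveolar macrophages. The 10 genes were RT1-Ba, RT1-Bb, RT1-Da, RT1-Db1, RT1-DMa, RT1-DMb, Cd74, Ciita, Cd80 and Cd86. They were chosen by name, and their probes were found through the RefSeq accession printed for each spot. All 10 had a probe, with 11 probes and 22 spots between them, among 16581 genes that could be named on the array.

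The cells were NR8383, a macrophage line established by lung lavage of a normal rat, described as being at 20 passages. Before RNA was taken, all cultures had spent 4 h with pristine single-walled carbon nanotubes, type NRCWE055, at a dose of 11 cm2 per cm2. They formed 1 group of 4 samples, described in the study design as biological replicates. For replicates 2 to 4 the nanotube number in the source name differs from that in the title, and the title was used. Unexposed cells were not analysed here, so no value is a response to the nanotubes. RNA was measured on 1-colour arrays of a single slide and scan.

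Class II molecules carry peptides from endocytosed protein to the cell surface, where CD4 T cells read them. In the rat the classical molecules are RT1-B, made of the RT1-Ba and RT1-Bb chains, and RT1-D, made of RT1-Da and RT1-Db1. The invariant chain, encoded by Cd74, holds the peptide groove closed during transport, and the RT1-DM pair then exchanges its remnant for peptide in late endosomes. Transcription of these genes depends on the coactivator CIITA, which does not bind DNA itself but docks on RFX, CREB and NF-Y proteins assembled on the X and Y boxes of class II promoters. CD80 and CD86 give T cells the costimulatory signal through CD28. Alveolar macrophages are known as weak presenters of antigen compared with dendritic cells.

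Promoter sequences from RefSeq (assembly GRCr8) were available for 8 of the 10 genes, from 250 bases before the transcription start to 50 after it. Those of Ciita and RT1-DMb were not used here. Letters resembling the boxes were searched on both strands: ACNGATG for the X1 box, TGANGTCA for the X2 box and GATTGG for the Y box. The letters were chosen with these promoters in view. The stretches that hold the matches are shown because they resemble the boxes through which CIITA is known to act. Genes that carry them also differed in detection on the arrays, as named genes in general did. Whether CIITA acts at these matches was not tested. Capitals mark the matches, each sequence runs 5′ to 3′ on the strand of the gene, and in RT1-DMa the X1 and X2 matches overlap.
RT1-Da, chr20:4515324-4515382, plus strand: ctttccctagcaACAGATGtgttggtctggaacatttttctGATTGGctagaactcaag
RT1-Db1, chr20:4560226-4560283, minus strand: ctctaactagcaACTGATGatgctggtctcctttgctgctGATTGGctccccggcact
RT1-Ba, chr20:4576976-4577030, plus strand: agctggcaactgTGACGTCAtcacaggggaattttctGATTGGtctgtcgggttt
RT1-Bb, chr20:4604163-4604220, minus strand: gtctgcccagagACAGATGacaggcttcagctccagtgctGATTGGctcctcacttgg
RT1-DMa, chr20:4712383-4712441, minus strand: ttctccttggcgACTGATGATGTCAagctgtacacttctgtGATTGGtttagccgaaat

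Among the 8 genes with a promoter sequence, 5 held a Y match, namely the class II genes shown. Of 33469 rat promoters of the same length, 14.8% hold it. The X1 match was present in 4 of these 5, against 10.2% of all promoters. RT1-Ba held no X1 match but an X2 match, which 10.2% of all promoters also hold. In RT1-Da, RT1-Db1, RT1-Bb and RT1-DMa the X1 match lay 21 or 22 bases before the Y match on the same strand. An X1 match followed by a Y match on the gene's strand after 10 to 30 bases was found in 9 of the 33469 promoters (0.0269%). These were the same 4, the class II genes RT1-Db2 and RT1-DOb, and Zfp442, Mtmr4 and Aanat. Since the letters were taken with the members in view, all these counts and shares only describe the arrangement. Of the 6 class II genes that carry it, RT1-Db1, RT1-Bb and RT1-DMa were well above background on all 4 arrays. RT1-Da, RT1-Db2 and RT1-DOb were so on none. For comparison, 52.4% of the 16581 named genes met that standard everywhere, so this split does not set the carriers apart from genes in general. The promoters of Cd74, Cd80 and Cd86 held none of the 3 motifs in this window. A box spelled with other letters would have been missed, so this does not show that these promoters lack the boxes.

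**Figure D1:**
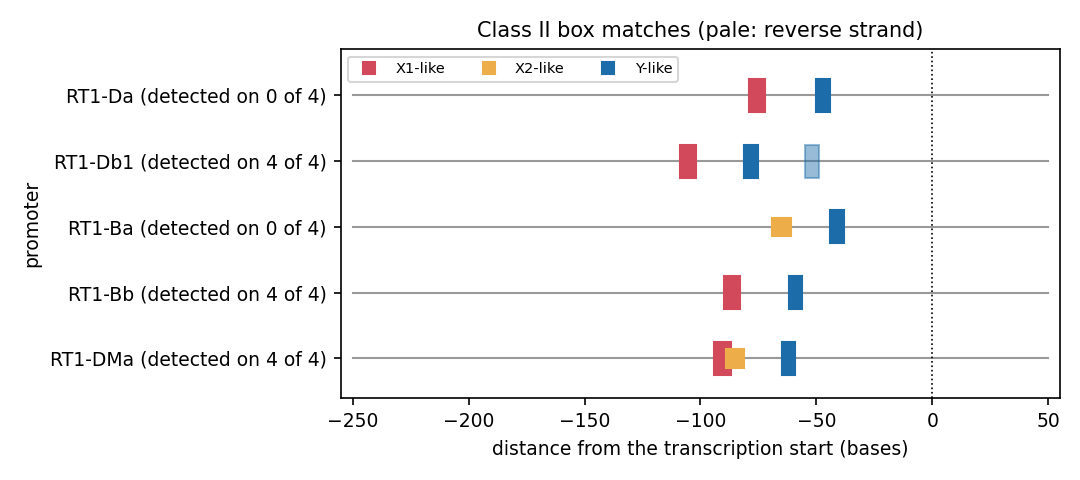
Positions of the box matches in 5 class II promoters, with distance from the transcription start in bases on the horizontal axis and 1 promoter per line, labelled with the number of arrays on which the gene was detected. The X1 and Y matches of RT1-Da, which was detected on 0 arrays, are spaced as in RT1-DMa, which was detected on 4.

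Of the 10 genes, 4 were detected on all 4 arrays, namely RT1-DMa, RT1-DMb, RT1-Db1 and RT1-Bb. Among all named genes 52.4% were detected, so the share of 4 in 10 was not above that of genes in general. Detected means that most usable spots of a probe were marked well above background by the scanner software. RT1-Ba, RT1-Da, Cd74, Ciita, Cd80 and Cd86 were detected on no array. With a looser flag, which asks only that a spot be positive and significant against background, Cd74 and Cd80 also passed on all arrays, making 6 of 10 against 61.3% of named genes. Asking for at least 3 arrays gave the same 4 genes, against 53.9%. Signals are given as processed intensities, and levels as log2 relative to the 75th percentile of the probes detected on all arrays, which lay between 1756 and 2861 intensity units. The lowest signal of a detected probe was between 15.6 and 15.9 on the 4 arrays, and the median of 308 negative control spots was between 3.64 and 4.16. Probes differ in their binding, so levels are not compared between genes.

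**Figure D2:**
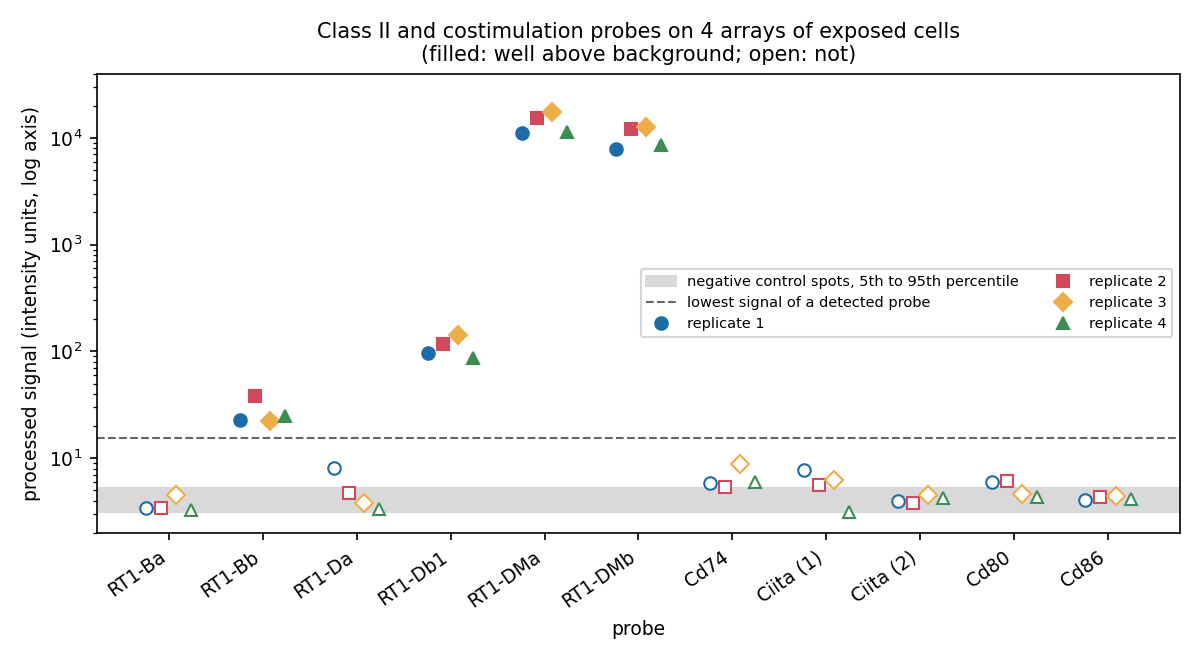
Processed signal of each of the 11 probes (log axis, intensity units) on the 4 arrays, 1 symbol per replicate, with the grey band covering the 5th to 95th percentile of negative control spots and the dashed line the lowest signal of a detected probe on any array. Filled symbols are well above background; RT1-DMa and RT1-DMb lie at 7826 or above, RT1-Db1 between 86.4 and 142, RT1-Bb between 22.2 and 38.1, and the other probes below 10.

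RT1-DMa and RT1-DMb, the chains of the peptide exchange molecule, were far above background in every culture. The RT1-DMa probe gave processed signals of 11029, 15305, 17298 and 11260 on replicates 1 to 4. These were 706 to 1086 times the lowest detected signal of the same array. The RT1-DMb probe gave 7826, 12196, 12617 and 8509, which were 501 to 792 times that signal. Both probes were brighter on replicates 2 and 3, the arrays that were brighter as a whole. After scaling, the level of RT1-DMa was 2.59 ± 0.05 (SD, n = 4), with values of 2.65, 2.54, 2.60 and 2.59 on replicates 1 to 4. The level of RT1-DMb was 2.17 ± 0.03 (SD, n = 4), with values of 2.16, 2.21, 2.14 and 2.18. The 4 cultures thus spanned 1.08-fold for RT1-DMa and 1.05-fold for RT1-DMb, and no array stood apart for either gene. From raw median signals with normexp background correction, the level of RT1-DMb was 1.66 and its SD 0.128.

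For each classical class II molecule, the beta chain gene was detected and the alpha chain gene was not, with RT1-Bb near the detection limit. RT1-Db1, the beta chain of RT1-D, gave signals of 97.3, 117, 142 and 86.4 on replicates 1 to 4. Its level was -4.36 ± 0.14 (SD, n = 4), and its signals were 5.47 to 8.95 times the lowest detected signal. Both of its spots were well above background on each array. RT1-Bb, the beta chain of RT1-B, gave 22.6, 38.1, 22.2 and 24.7, only 1.40 to 2.45 times the lowest detected signal. Its level was -6.41 ± 0.41 (SD, n = 4). Replicate 3 was lowest for RT1-Bb at -7.01 against -6.28 to -6.11 on the other arrays, and without it the SD was 0.0868 and the level -6.20.

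The alpha chain probes lay near the signal of negative control spots on most arrays. RT1-Ba gave 3.42, 3.39, 4.51 and 3.29, which was 0.884 to 1.09 times the median of the negative controls. It passed the looser flag on replicate 3 alone. RT1-Da gave 8.10, 4.71, 3.78 and 3.34 as the mean of its 2 spots. On replicate 1 these spots disagreed, at 3.21 and 20.4, and the brighter of them was marked well above background. On replicates 3 and 4 both RT1-Da spots were at 3.93 or less. The other class II genes with a probe, RT1-DOa and RT1-DOb, which encode the modulator of RT1-DM, and RT1-Db2, a further RT1-D beta chain gene, were not detected on any array. RT1-Db1 and RT1-Db2 are close relatives, so their signals may not be fully separate, and how well any of these probes matches the class II alleles of NR8383 was not tested.

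Cd74, the invariant chain gene, was measured by a probe printed 10 times per array and was not well above background at any of 39 usable spots. The median spot signal was 5.72, 5.41, 8.93 and 5.88 on replicates 1 to 4, and the brightest usable spot reached 13.9. The spot left out as an outlier, on replicate 3, had a signal of 17.8. Faint signal was nevertheless measured. The looser flag was passed by 28 of the 39 spots (71.8%), against 61 of 1232 negative control spots (4.95%). By array, 7, 6, 8 and 7 spots passed, so the faint signal was seen on each array. All these spots carry the same probe, so Cd74 transcript and unspecific binding by that probe cannot be told apart. Spots of the same array varied by an SD of 0.51 to 0.57 on the log2 scale, and no level is given at this brightness.

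**Figure D3:**
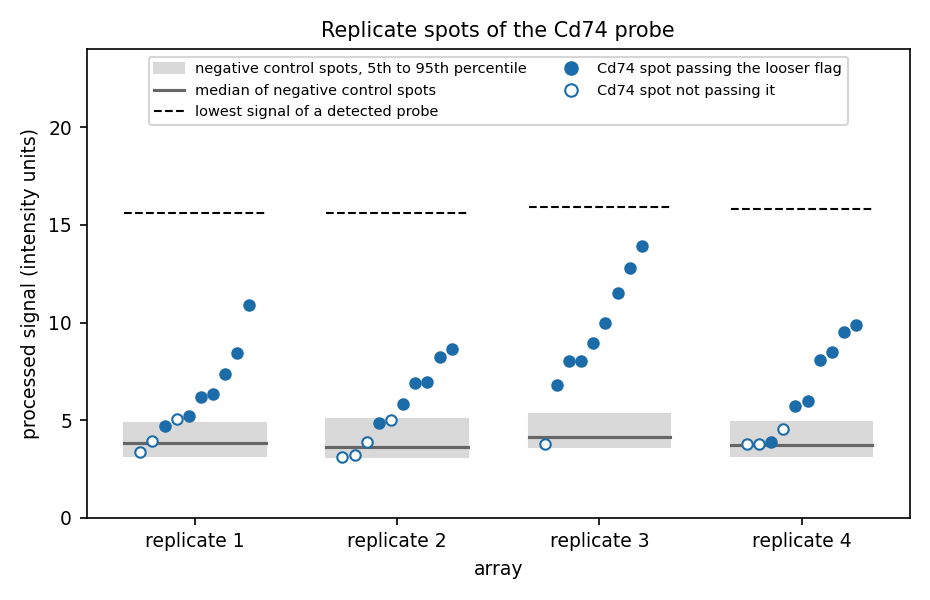
Processed signal (intensity units) of the usable Cd74 spots on each array, sorted within the array, against the 5th to 95th percentile (grey) and median (line) of negative control spots and the lowest signal of a detected probe (dashed). On every array 5 to 8 of the usable spots lie above the grey range and none reaches the dashed line.

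Ciita, the class II coactivator gene, was read by 2 probes, neither of which was well above background on any array. The first probe (A_42_P497290) gave 7.68, 5.58, 6.21 and 3.15 on replicates 1 to 4 and passed the looser flag on replicates 1, 2 and 3. The other (A_64_P010569) gave 3.95, 3.83, 4.50 and 4.26, between 1.02 and 1.14 times the negative control median, and passed on none.

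A list of class II regulators was mostly measurable. It held genes of the proteins on which CIITA docks, genes of the interferon gamma pathway that can induce it, and Irf8 and Spi1. Of these 14 genes 13 were detected on all arrays, and Nfyb on 3. The RFX subunit genes were at -1.18 ± 0.06 for Rfx5, -2.64 ± 0.07 for Rfxap and -0.06 ± 0.04 for Rfxank (SD, n = 4 here and for the levels that follow). Nfya was at -4.71 ± 0.07, Nfyc at -2.63 ± 0.14 and Creb1 at -4.40 ± 0.17. The interferon gamma receptor chain genes were at 1.80 ± 0.14 for Ifngr1 and 0.64 ± 0.07 for Ifngr2. Their kinases were at -0.30 ± 0.04 for Jak1 and -4.14 ± 0.20 for Jak2. The interferon regulatory factor Irf1 was at 0.11 ± 0.05 and its relative Irf8 at -6.37 ± 0.13. The myeloid factor Spi1, counted also among the macrophage markers below, was at 0.82 ± 0.07. The probes of a gene disagreed for Jak1, where 2 spanned 4.19 on the log2 scale, and for Creb1, where 2 spanned 1.37.

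Cd80 and Cd86, which encode the ligands of CD28, were not detected. The Cd80 probe gave 6.05, 6.14, 4.67 and 4.37 on replicates 1 to 4, at 1.12 to 1.69 times the negative control median, and passed the looser flag on every array. The Cd86 probe gave 4.03, 4.36, 4.47 and 4.11, at 1.05 to 1.20 times the median, and passed on none. The array held 1 spot of each, so the weak Cd80 signal could not be checked within an array.

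Among other ligands that activate or restrain T cells, 7 of the 12 that had a probe passed on every array. Cd83, a marker of mature antigen-presenting cells, was at 1.63 ± 0.02, Vsir, an inhibitory B7 relative, at 1.74 ± 0.09, and the adhesion molecule Icam1 at 2.20 ± 0.06. Cd276, another B7 relative, was at -0.05 ± 0.03. Cd274, which encodes the inhibitory ligand PD-L1, was at -3.22 ± 0.07, Tnfsf9 at -4.31 ± 0.09 with replicate 2 lowest at -4.45, and Cd48 at -3.82 ± 0.19, the pair of Cd48 probes lying 2.60 apart. Cd40, Pdcd1lg2, Vtcn1, Tnfsf4 and Cd70 were not detected on any array, and Cd40 passed the looser flag on 3.

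The genes listed for class II processing and traffic were all measurable, with 10 of 10 detected on every array. Ctss, whose protease trims the invariant chain, was at 2.08 ± 0.03 with replicate 4 lowest at 2.03, and Ifi30, the lysosomal thiol reductase gene, at 4.91 ± 0.05. Ctsb was at 5.97 ± 0.16, Ctsd at 5.97 ± 0.25, Ctsl at -1.80 ± 0.09 and Lgmn, which encodes the asparagine-specific protease legumain, at 0.40 ± 0.05. The ubiquitin ligase genes whose products can remove class II and CD86 from the surface were at -4.13 ± 0.12 for Marchf1, its 3 probes spanning 3.06, and 0.88 ± 0.08 for Marchf8. The tetraspanin genes were at 4.22 ± 0.08 for Cd63 and -2.73 ± 0.09 for Cd82.

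Class I presentation was detected for 9 of 9 genes with a probe. The class I heavy chain genes were at 6.06 ± 0.16 for RT1-A1 and 5.08 ± 0.11 for RT1-A2, and the light chain gene B2m at 4.57 ± 0.10. These heavy chain genes belong to a family of close copies, so their probes may share signal. The peptide transporter genes were at -3.05 ± 0.17 for Tap1 and 0.12 ± 0.22 for Tap2, with probes 2.31 and 1.32 apart. Replicate 1 was high for Tap2, at 0.45 against -0.01 to 0.03, and for B2m, at 4.73 against 4.50 to 4.53. The loading complex was represented by Tapbp at -0.34 ± 0.13, Calr at 2.92 ± 0.19, Pdia3 at -0.06 ± 0.11 and Canx, read by 1 of its 2 probes, at 0.97 ± 0.12.

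**Figure D4:**
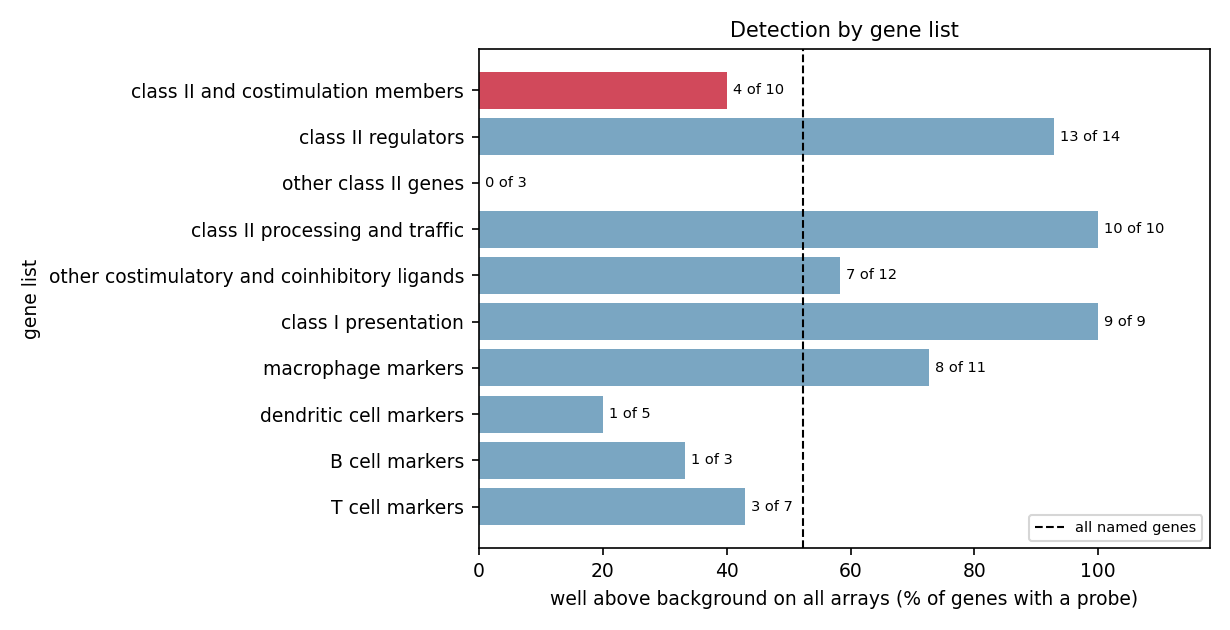
Share of genes with a probe that were well above background on all 4 arrays, for each gene list, with the count beside each bar and the share of all named genes (52.4%) as a dashed line. The class II and costimulation genes stand at 4 of 10 and the other class II genes at 0 of 3. Beside them are 10 of 10 for class II processing and traffic and 9 of 9 for class I presentation.

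The 6 RT1 genes examined lie together on chromosome 20, and detection differed along this block. In the GRCr8 annotation 12 protein-coding genes run from RT1-Da to RT1-DMa, and all 6 non-members among them had a probe. The order begins RT1-Da, RT1-Db2, RT1-Db1, RT1-Ba, RT1-Bb and RT1-DOb, of which RT1-Db1 and RT1-Bb were detected. It continues with Tap2, Psmb8, Tap1, Psmb9, RT1-DMb and RT1-DMa, all of them detected on every array. Among all named genes 52.4% were detected on all arrays, and RT1-Bb lay near the detection limit. Psmb8 and Psmb9, which encode immunoproteasome subunits, were at 3.57 ± 0.08 and 2.64 ± 0.05. Beyond RT1-DMa, Brd2 was detected at -2.49 ± 0.12 and RT1-DOa was not.

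Of the 4 detected class II genes, RT1-DMa and RT1-DMb varied less between cultures than the median detected gene. RT1-Db1 and RT1-Bb varied more, RT1-Bb lying near the detection limit. The SD over the 4 arrays was 0.0316 for RT1-DMb, 0.0455 for RT1-DMa, 0.142 for RT1-Db1 and 0.406 for RT1-Bb. Their median of 0.0938 stood beside 0.0926 over all 8685 detected genes. None of the 4 spanned over 2-fold, as 1.11% of detected genes did, the widest being RT1-Bb at 1.87-fold. RT1-Db1 was the only one printed more than once and could be tested against the noise between spots. Its arrays differed by at most 0.323 on the log2 scale, which did not pass in limma's moderated F test over replicate spots (adjusted p = 0.319, Benjamini-Hochberg, unadjusted p = 0.227), whereas 43.3% of 1742 such probes did. Among the 704 probes printed 2 times, as RT1-Db1 was, 73 passed (10.4%), and with normexp correction 12.6% of all 1742 did. This test compares arrays, with 1 array per culture. Without replicate 1 the SD fell to 0.0781 for RT1-Db1 and to 0.0229 for RT1-DMa, and rose to 0.0439 for RT1-DMb and 0.492 for RT1-Bb.

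**Figure D5:**
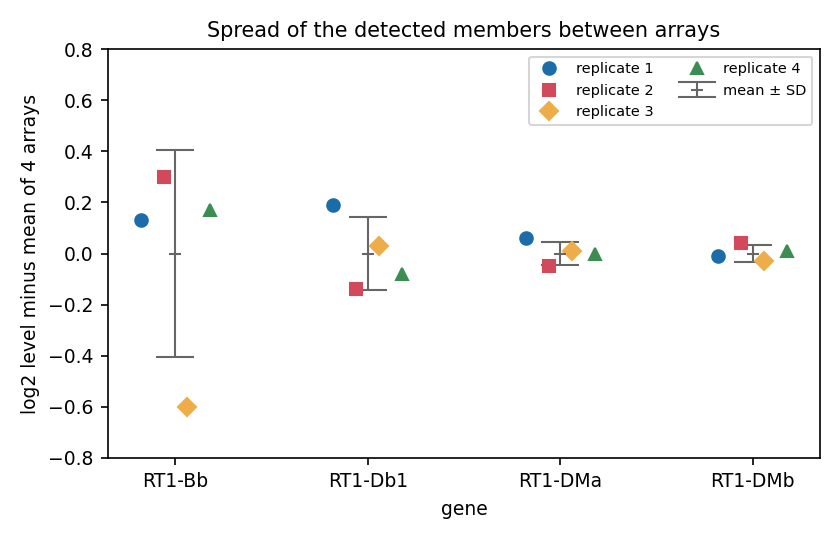
Log2 level of the 4 detected genes on each array minus the mean of the 4 arrays, 1 symbol per replicate, with bars for the SD. RT1-DMa and RT1-DMb stay close to 0, and replicate 3 lies lowest for RT1-Bb.

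Macrophage markers were detected for 8 of 11 genes, among them Cd68 (3.07 ± 0.10), Lyz2 (5.17 ± 0.19), Pparg (3.32 ± 0.12), Siglec1 (-0.80 ± 0.13), Itgam (-2.53 ± 0.13), Mrc1 (-2.55 ± 0.22) and Csf1r (-1.54 ± 0.16). The probes of Itgam spanned 1.76 and those of Lyz2 1.94. Marco, Cd163 and Adgre1 were not detected. Of other cells that present antigen, 1 of 5 dendritic cell markers (Batf3, -1.72 ± 0.08) and 1 of 3 B cell markers (Pax5, -2.91 ± 0.35) were detected on all arrays. Xcr1, Clec9a and Ccr7 of dendritic cells and Cd79b and Cr2 of B cells were detected on none, and Zbtb46 on 1. With the looser flag, Clec9a, Zbtb46 and the macrophage marker Adgre1 passed on 4 arrays, Ccr7 on 3 and Marco on 2. Cd163 and Cd79b passed it on 1, and Xcr1 and Cr2 on none. Of 7 T cell markers, Cd3d (-4.94 ± 0.27), Cd28 (1 of 2 probes, -0.80 ± 0.32) and Lck (-4.10 ± 0.04) were detected, and Cd3e, Cd3g and Cd8a were not. Ctla4 was detected on 1 array. In bulk RNA, fewer cells carrying a transcript and less of it per cell cannot be told apart.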

How the data were processed

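The members and gene lists were chosen with earlier results of these data known. Version 11.0.1.1 of Agilent's Feature Extraction software read the spots, per the submitters' processing notes. The array was designed on build rn4, per the file headers. The deposited processed signal is an intensity from which the software had removed background and spatial trends, with no step joining the arrays. Control spots were left out, as were 427 to 714 outlier spots on each array. Log2 signals of repeated spots were averaged by probe. Scaling subtracted, for each array, the 75th percentile of the 17807 probes that passed detection everywhere. A gene's level is the mean of its detected probes. Precision is limited by having 4 arrays.

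Symbols came from RefSeq accessions without version (GRCr8 table), which named 21109 of 45598 probes. Genes named were all 10 members whatever their values, and the pathway and marker lists, of which some genes are not reported here. No probe was matched to RT1-Hb-ps1, Icosl, Tnfsf18, Nlrc5, Erap1, Flt3, Itgax, Ms4a1 or Cd79a. The F test was run in limma 3.58.1 (R 4.3.3) and tested on simulated data. Figures were drawn with matplotlib 3.10.9. Alternatives were a looser flag, 3 of 4 arrays, the brightest probe, outlier spots kept, no filter on dim probes, other scalings, normexp correction (offset 50, from median signals as deposited) and leaving out each replicate.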

Additional observations from a re-analysis of the deposited data

Results flagged for a closer look

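Dixon's ratio put 1 array apart, past the 95% critical value, in 5 of 62 genes and probes examined, where chance gives about 3.1. Tap2 was at 0.45 on replicate 1 against -0.01 to 0.03 on the others. B2m was at 4.73 on replicate 1 against 4.50 to 4.53. Ctss was at 2.03 on replicate 4 against 2.09 to 2.10. Tnfsf9 was at -4.45 on replicate 2 against -4.28 to -4.26. The Cd74 probe, below detection, had a scaled signal of -8.94 on replicate 2 against -8.35 to -8.24.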

How the results depend on the processing

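The same 4 genes (RT1-Bb, RT1-Db1, RT1-DMa and RT1-DMb) were detected on all arrays with the brightest probe, with outlier spots kept, on at least 3 arrays (53.9% of named genes) and without each replicate in turn, where the count was 4 to 4. Levels of the RT1-DM genes moved by more than their SD in some of these runs. Without replicate 1 they were 2.65 for RT1-DMa and 2.26 for RT1-DMb, against 2.59 and 2.17 with all arrays. Without replicate 4 the level of RT1-DMb was 2.21. The RT1-Db1 probe, the only member probe that could be tested between arrays, did not pass under any scaling tried, with normexp correction or without a replicate (0 to 0), and with normexp correction it had an unadjusted p of 0.0349 (limma adjusted p = 0.166, range over the alternatives 0.137 to 0.728). Scaling to all probes raised all levels (median shift 3.61), as did median centring (2.43), while quantile normalization did not move the median. With normexp correction the SD of RT1-DMb was 0.128 and its level 1.66, and the levels of RT1-Db1 and RT1-Bb were -3.70 and -4.60, where all genes shifted by a median of 0.20. The cause was not tested. Signal over background limits what can be said of the 6 undetected genes: no level could be given for them, which does not show that their transcripts were absent. No paired analysis was possible because the samples form 1 group.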
